A study of Canis lupus familiaris with 21 samples.

Results

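GZMA, GZMB and GZMK (granzymes A, B and K) and PRF1 (perforin) are 4 of the 800 probes of the nCounter Canine IO Panel, a hybridization assay that counts color-coded probes bound to single RNA molecules. All 4 were found in the table by their symbols and all 4 had values above the lowest deposited value in all 21 libraries, so no member was lost to a filter. The libraries came from canine cutaneous histiocytoma (CCH), a tumor of Langerhans cells in the skin of dogs, most of which disappear by themselves as lymphocytes invade them. The tumors were spontaneous, from privately owned dogs of several breeds and both sexes, and stored formalin-fixed and paraffin-embedded (FFPE).

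Group 1 was tumor tissue of stage 1 (n = 5 libraries of 5 dogs aged 0.5 to 5 years, with the age of 4 dogs given). Group 2a was made of tumor cell-enriched areas of stage 2 (n = 5 libraries of 5 dogs aged 0.6 to 3 years). Group 2b was made of lymphocyte-enriched areas of stage 2 (n = 6 libraries of 17 dogs aged 0.3 to 6 years, with 2 libraries of a single dog and 4 pools). Group 3 was lymphocyte-enriched tissue of stage 3 (n = 5 libraries of 5 dogs aged 1.5 to 9 years), although another label of the same samples calls it tumor tissue. Stage 2 areas had been selected by microscopy and punched out, which the methods do not describe for the other stages. Groups 1 and 2a are called tumor cell-rich here, and groups 2b and 3 lymphocyte-enriched. Each library is mixed tissue, so that fewer cells of a type and less RNA per cell cannot be told apart in any of these values.

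Cytotoxic T cells and natural killer cells store perforin and granzymes in secretory granules and release them onto a bound target cell. Perforin forms pores in the target membrane and lets the granzymes in. Granzyme B cuts proteins after aspartate and starts apoptosis through caspases and BID, granzyme A is a tryptase that kills by a route that needs no caspase, and granzyme K, also a tryptase, is known in humans and mice from memory and tissue-resident CD8 T cells. Sequences of the probes or genes were not used here.

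Whole counts recovered from the deposited values summed to 484696 to 823763 per library in group 1, 756981 to 1128309 in group 2a, 982552 to 1315188 in group 2b and 945399 to 1253083 in group 3. The counts behind the members ran from 28 to 1604 for GZMA, 84 to 6060 for GZMB, 89 to 10956 for GZMK and 48 to 1666 for PRF1. DV200, the share of longer RNA fragments, was 64.5 to 71.2% in group 1, 70.5 to 76.6% in group 2a, 72.5 to 76.9% in group 2b and 71.2 to 75.8% in group 3. The summed values of 11 T cell markers ran from 515 to 9673 in group 1, 2561 to 6936 in group 2a, 12072 to 21278 in group 2b and 13158 to 21934 in group 3, with no marker at the lowest deposited value of 1. Replicate 1 of group 1 held the fewest T cell transcripts, with 19.0, 42.3 and 22.2 normalized counts of CD3D, CD3E and CD3G, subunits of the T cell receptor complex. The value of another gene's probe cannot be set against these as a level, since each probe binds with its own efficiency, so levels are compared between groups for 1 probe at a time.

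PRF1, the pore former, was measured at 953, 1498, 644, 649 and 1799.5 normalized counts in group 3 (replicates 1 to 5). In group 2b it ran from 749 over a median of 974 to 1968. In group 2a it was measured at 282, 334, 97.5, 221 and 815, and in group 1 at 64.5, 190.0, 685, 175 and 91.0. Only replicate 5 of group 2a and replicate 3 of group 1 reached the range of the lymphocyte-enriched libraries.

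GZMK was measured at 6533, 10705, 4839, 9249 and 5863 normalized counts in group 3 and from 5253 over a median of 8115 to 11318 in group 2b. In group 2a it was measured at 394, 907, 681, 1354 and 2499.8, and in group 1 at 94.2, 469.8, 2412, 939 and 199. All 11 lymphocyte-enriched libraries lay above all 10 tumor cell-rich ones, and how many of all probes separate in this way was not counted. Groups 2b and 2a did not overlap for 25.4% of all probes and groups 3 and 1 for 23.5%, with CD3D, CD3E and CD3G among them in both. Within the lymphocyte-enriched groups the highest library was 2.15 times the lowest in group 2b and 2.21 times in group 3, against 6.34 times in group 2a and 25.6 times in group 1.

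GZMB was measured at 5292, 4738, 613, 5419.8 and 5351 normalized counts in group 3 and from 1263 over a median of 3092 to 5844 in group 2b. Group 2a gave 1269.9, 93.85, 151, 728 and 2263, and group 1 gave 273, 1589, 729, 461 and 259.6. Replicate 3 of group 3 fell far below the other libraries of its group and inside the range of the tumor cell-rich groups. The values of group 2a were the most uneven, with the highest 24.1 times the lowest.

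GZMA was measured at 513, 1395, 171, 1239.8 and 675 normalized counts in group 3 and from 258 over a median of 649.7 to 1272 in group 2b. In group 2a it was measured at 378, 359, 215, 196 and 1458, and in group 1 at 126, 126, 1076, 575 and 53.05. The ranges of all 4 groups overlapped, and the highest value of the 21 libraries stood in tumor cell-rich tissue, in replicate 5 of group 2a.

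**Figure D1:**
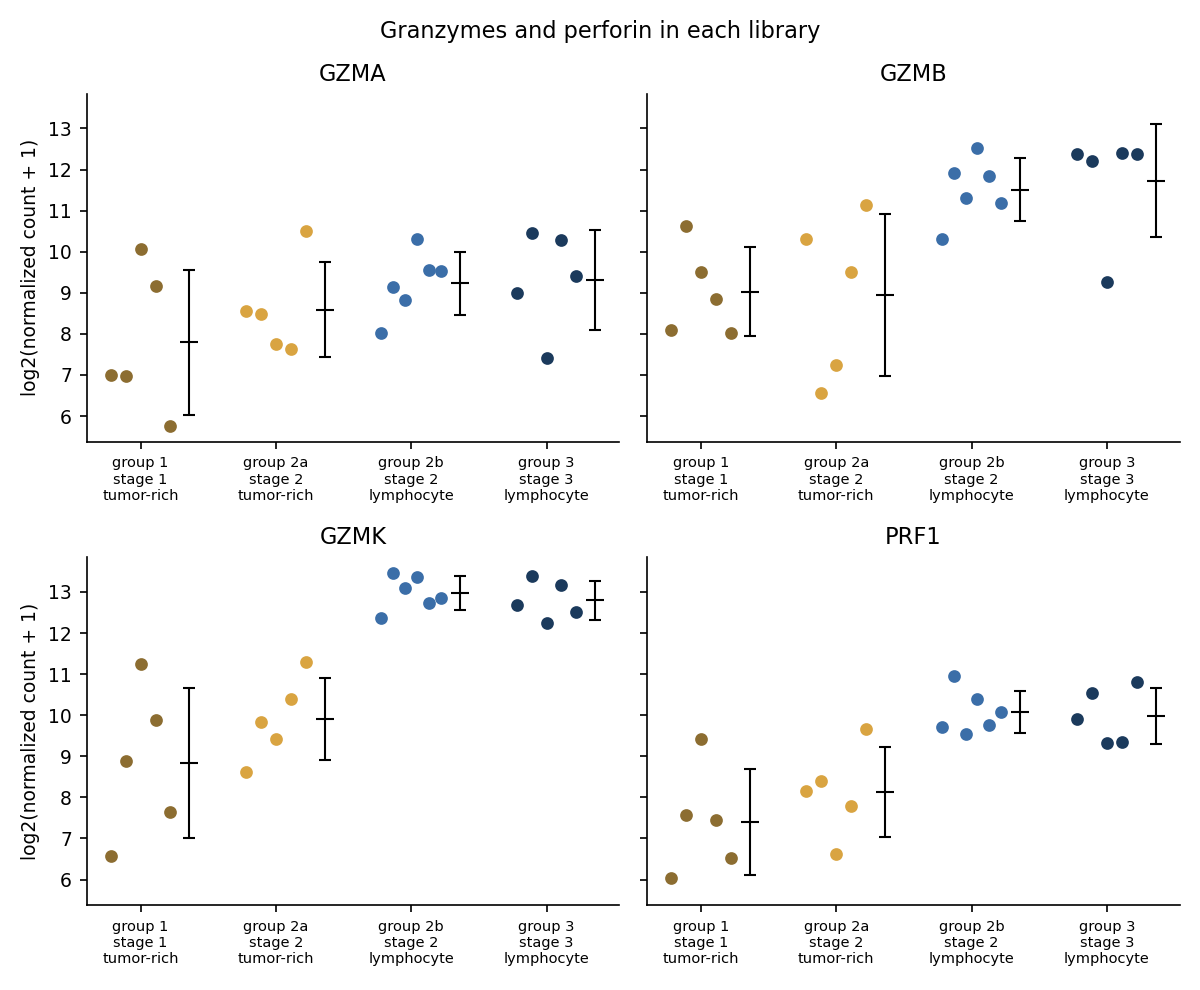
Each point is 1 library, on the scale of log2(normalized count + 1), with the groups in order of stage on the x axis and the mean ± SD beside the points (n = 5, 5, 6 and 5). GZMK separates the lymphocyte-enriched from the tumor cell-rich libraries, 7 of 21 libraries for GZMB, 5 for PRF1 and 18 for GZMA lie where the ranges of both kinds of tissue overlap. Of all probes 25.4% do not overlap between groups 2b and 2a and 23.5% between groups 3 and 1.

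By their mean log2 values the groups stood in the order 1, 2a, 2b, 3 for GZMA, in the order 2a, 1, 2b, 3 for GZMB, and in the order 1, 2a, 3, 2b for both GZMK and PRF1. In the order of GZMA no step between neighbors passed the limma test (adjusted p of 0.525 or more). For the other members the step between the tumor cell-rich and the lymphocyte-enriched groups was the only one past the threshold. It was 2.48 (adjusted p = 0.0119) on the log2 scale for GZMB between groups 2b and 1, 2.89 (adjusted p = 0.00156) for GZMK between groups 3 and 2a, and 1.86 (adjusted p = 0.0130) for PRF1 between groups 3 and 2a.

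Within stage 2, which asks how the lymphocyte-enriched areas differ from the tumor cell-enriched ones, GZMK, GZMB and PRF1 were higher in group 2b than in group 2a, and GZMA did not pass the test. GZMK averaged 8359 ± 2312 normalized counts in group 2b (SD, n = 6) and 1167 ± 823 in group 2a (SD, n = 5), a log2 fold change of 3.07 (SE 0.60, adjusted p = 4.94e-04) or 8.39-fold with a 95% interval of 3.51 to 20.1. GZMB averaged 3247 ± 1591 in group 2b and 901 ± 899 in group 2a, with a log2 fold change of 2.55 (SE 0.76, adjusted p = 0.0116). PRF1 averaged 1144 ± 458 in group 2b and 349.9 ± 275 in group 2a, with a log2 fold change of 1.95 (SE 0.53, adjusted p = 0.00649). GZMA averaged 672 ± 346 in group 2b and 521 ± 530 in group 2a. Its log2 fold change was 0.64 (SE 0.71, adjusted p = 0.525), and its interval of 0.557-fold to 4.36-fold leaves room for a difference of the size of PRF1.

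Higher calls were made for 3 of 4 members, where 32.2% of all probes were called higher in this comparison. By log2 fold change the members ranked 17 (GZMK), 33 (GZMB), 83 (PRF1) and 276 (GZMA) of 800. The groups did not overlap for GZMK, which held for 25.4% of all probes. For GZMB and PRF1 5 of the 6 libraries of group 2b lay above all of group 2a. The calls for GZMB and PRF1 were lost with TMM scaling in edgeR (adjusted p = 0.0823 and 0.0578) and when group 2b was cut to its 2 single-dog libraries (adjusted p = 0.219 and 0.0771), and the call for GZMB also in edgeR with the deposited factors (adjusted p = 0.0507) and with the Benjamini-Yekutieli adjustment (adjusted p = 0.0843). GZMK was called in all 38 alternatives, with an adjusted p of at most 0.0435.

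The deposited scale sets reference genes equal between libraries, and on it the log2 fold changes of the 800 probes had a median of 0.23 for group 2b minus group 2a and 0.14 for group 3 minus group 1. With every library set to the same median over all probes these medians were -0.48 and -0.52. On that scale, for group 2b minus group 2a, GZMK (2.35), GZMB (1.84) and PRF1 (1.24) kept their calls, while GZMA stood at -0.073, so that its direction depends on the scaling. Less the median of the 800 probes, the log2 fold changes were 2.84 (GZMK), 2.32 (GZMB), 1.72 (PRF1) and 0.41 (GZMA) there, and 3.81, 2.56, 2.44 and 1.37 in the same order for group 3 minus group 1.

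Group 3 against group 1 sets the latest stage measured against the earliest, and here stage and kind of area differ together. GZMK had the largest increase in log2 value of all 800 probes in this comparison, and PRF1 and GZMB also passed the test. GZMK averaged 7438 ± 2450 normalized counts in group 3 and 823 ± 947 in group 1 (SD, n = 5 each), with a log2 fold change of 3.96 (SE 0.63, adjusted p = 1.02e-04) or 15.5-fold with a 95% interval of 6.24 to 38.6. PRF1 averaged 1109 ± 519.7 in group 3 and 241 ± 254 in group 1, with a log2 fold change of 2.59 (SE 0.56, adjusted p = 0.00114). GZMB averaged 4283 ± 2069 in group 3 and 662 ± 552 in group 1, with a log2 fold change of 2.70 (SE 0.80, adjusted p = 0.0107).

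GZMA averaged 799 ± 510.1 in group 3 and 391 ± 435 in group 1, with a log2 fold change of 1.52 (SE 0.74, adjusted p = 0.117). Leaving out replicate 3 of group 1, its highest library for GZMA, gave 2.09 (adjusted p = 0.0261), and leaving out replicate 3 of group 3, the lowest there, gave 1.99 (adjusted p = 0.0405). These were the only 2 of 38 alternatives that called GZMA. Over all of them it ran from 0.79 to 2.09, with an adjusted p of up to 0.846. Higher calls were thus made for 3 of 4 members in the fit of all libraries, beside 29.4% of all probes. The groups did not overlap for GZMK, as for 23.5% of all probes, and 4 of 5 libraries of group 3 lay above all of group 1 for GZMB and 3 of 5 for PRF1. GZMB lost its call with DV200 as a covariate (adjusted p = 0.0528) and with the Benjamini-Yekutieli adjustment (adjusted p = 0.0775). Over the 38 alternatives the adjusted p was at most 0.0169 for PRF1 and 0.00546 for GZMK.

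Markers of several cell types moved with these differences. All 11 T cell markers were called higher in both comparisons, with a median log2 fold change of 2.40 for group 2b minus group 2a and 2.88 for group 3 minus group 1. Of 6 natural killer cell markers 4 and 3 were called higher, and of 5 B cell markers 5 and 4. Of all probes 32.2% and 29.4% were called higher in the same comparisons. The summed natural killer cell markers were 958 to 2569 in group 2b against 522 to 1182 in group 2a, and 1402 to 4357 in group 3 against 476 to 1341 in group 1. The summed B cell markers were 2797 to 5927 in group 2b against 208 to 499 in group 2a, and 843 to 4552 in group 3 against 142 to 426 in group 1. Of 7 Langerhans and dendritic cell markers 0 were called higher and 1 and 2 lower, where 6.5% and 10.5% of all probes were called lower in the comparisons of group 2b with group 2a and of group 3 with group 1. FLT3, a growth factor receptor of dendritic cells, was at -2.36 (adjusted p = 4.48e-05) and -2.49 (adjusted p = 7.57e-05). The summed Langerhans and dendritic cell markers were 1091 to 1724 in group 2b against 2136 to 5305 in group 2a, and 1367 to 1755 in group 3 against 1618 to 5082 in group 1. Much of the difference of these sums came from FLT3 alone, with means of 349 in group 2b, 1936 in group 2a, 415 in group 3 and 2379 in group 1. No other marker of the list was called for group 2b minus group 2a, and only CD207 for group 3 minus group 1 (-0.76, adjusted p = 0.0295). CD207 averaged only 16.1 ± 5.64 normalized counts in group 3 and 27.4 ± 8.06 in group 1, so that this change rests on low values. Of 6 macrophage markers 2 were called higher for group 2b minus group 2a, a share near the 32.2% of all probes. They were CD68 at 0.97 (adjusted p = 0.0189) and MARCO at 2.25 (adjusted p = 0.0301). For group 3 minus group 1 CD68 was called higher at 1.29 (adjusted p = 0.00390) and MRC1 lower at -1.0 (adjusted p = 0.0328). The summed macrophage markers overlapped, at 4200.3 to 6905 in group 2b against 2860.3 to 7331 in group 2a, and 3873 to 6681 in group 3 against 2781 to 7361 in group 1. None of these markers was at the lowest deposited value in any library. The members were set against T cell markers only, and the part of the other cell types in their values was not tested.

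The stage comparisons of the study, group 2a against group 1 and group 3 against group 2b, called none of the 4 members. For group 2a minus group 1 the log2 fold changes were 1.07 (SE 0.63, adjusted p = 0.449) for GZMK, 0.79 (SE 0.74, adjusted p = 0.652) for GZMA, 0.72 (SE 0.56, adjusted p = 0.577) for PRF1 and -0.07 (SE 0.80, adjusted p = 0.974) for GZMB, where 0.125% of all probes were called. Counted from the largest increase, GZMK stood at rank 6 of 800 in this comparison, yet its 95% interval ran from -0.24 to 2.39. Some decreases were greater in size, such as that of KRT14 at -2.01, which was not called either. The libraries of group 1 spread widely, with the highest 20.3 times the lowest for GZMA, 10.6 times for PRF1 and 6.12 times for GZMB.

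Between groups 3 and 2b the log2 fold changes of group 3 minus group 2b were 0.22 (95% interval -1.37 to 1.81) for GZMB, 0.08 (-1.40 to 1.57) for GZMA, -0.09 (-1.20 to 1.02) for PRF1 and -0.18 (-1.44 to 1.08) for GZMK. Each had an adjusted p of 0.999, and again 0.125% of all probes were called. A difference of 2-fold either way lies inside all 4 intervals, so this fit does not show equal levels. The fit shares 1 estimate of the spread over all groups, so these intervals also carry the spread of the tumor cell-rich libraries. For GZMK the SD of log2 values was 0.42 in group 2b and 0.47 in group 3, against 1.01 in group 2a and 1.83 in group 1. For PRF1 it was 0.52 and 0.68, against 1.10 and 1.30. Intervals from groups 3 and 2b alone are not reported here. The difference of the 2 stage comparisons was also tested and called none of the members, with the largest value for GZMK at -1.25 (95% interval -3.07 to 0.57, adjusted p = 0.53) and 0.125% of all probes called.

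**Figure D2:**
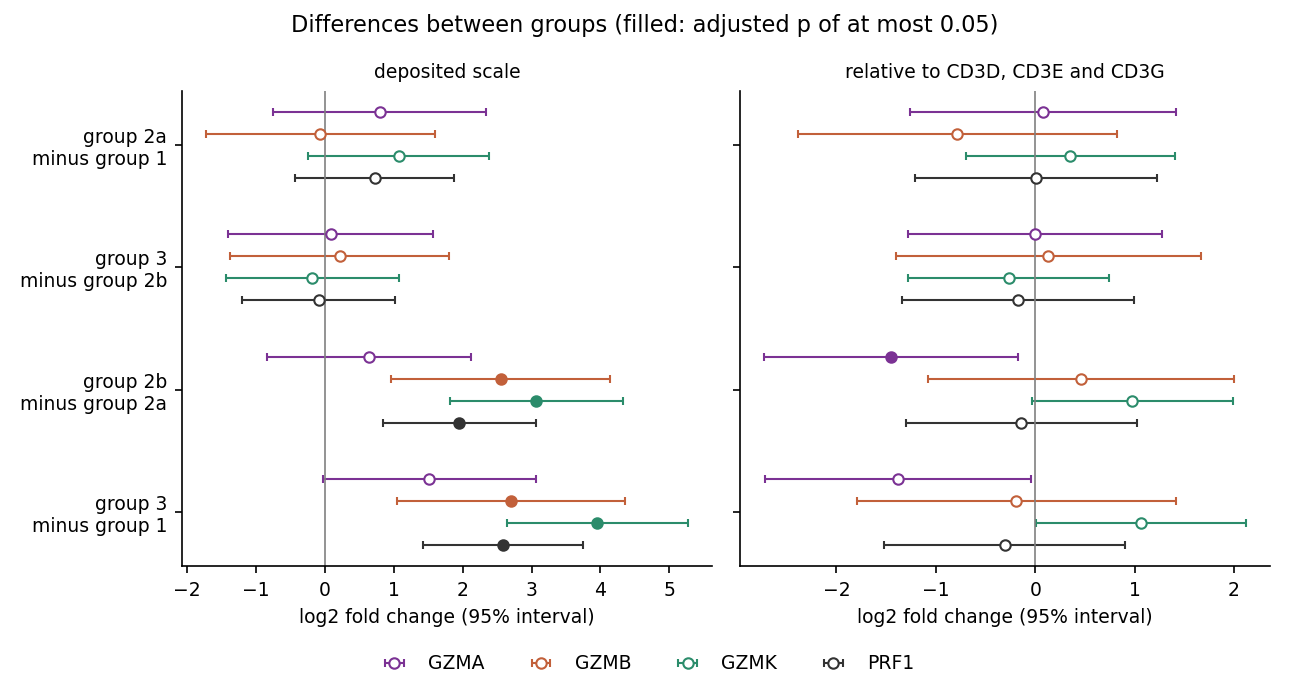
Points are log2 fold changes with 95% intervals from the limma fit over 21 libraries, on the deposited scale (left) and after the mean log2 value of CD3D, CD3E and CD3G was subtracted in each library (right), and filled points have an adjusted p of at most 0.05. On the left GZMB, GZMK and PRF1 are filled in the comparisons of group 2b with group 2a and of group 3 with group 1, and on the right only GZMA in group 2b minus group 2a.

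To ask how the members stood beside the amount of T cell transcripts, the mean log2 value of CD3D, CD3E and CD3G was subtracted in each library and the fit repeated over all probes. CD3D, CD3E and CD3G had log2 fold changes of 2.31, 2.05 and 1.92 for group 2b minus group 2a, so that 59.4% of all probes were called lower on this relative scale and 0.875% were called higher. GZMA was called lower with a log2 fold change of -1.45 (SE 0.63, adjusted p = 0.0464), GZMK stood at 0.98 (SE 0.49, adjusted p = 0.0826), GZMB at 0.46 (adjusted p = 0.600) and PRF1 at -0.14 (adjusted p = 0.840). The call for GZMA is read against that background, under which a lower call is the common one. GZMA relative to the CD3 genes was -0.95 or lower in all libraries of group 2b, where it averaged -1.64 ± 0.58 (SD, n = 6), and -1.06 or higher in group 2a, where it averaged -0.19 ± 0.69 (SD, n = 5). The call for GZMA was lost, at adjusted p of 0.0503 to 0.104, without any of the 6 libraries of group 2b, without replicate 1, 2, 3 or 5 of group 2a, and without replicate 1, 4 or 5 of group 3. Its value stayed between -1.67 and -1.23 in all fits that left out 1 library.

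GZMK relative to the CD3 genes averaged 2.11 ± 0.18 in group 2b (SD, n = 6) and 1.14 ± 0.71 in group 2a (SD, n = 5), without overlap. On this scale these groups did not overlap for 54.8% of all probes, with group 2b higher for 1.38% and lower for 53.4%. Its values in group 2a were -0.04, 1.52, 1.01, 1.73 and 1.47, so that replicate 1 alone lay near 0. GZMK was called higher when only these groups entered the fit (adjusted p = 0.00764) and without replicate 1 of group 1 (adjusted p = 0.0111), and in no other of its 30 alternatives.

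On the relative scale no member was called for group 3 minus group 1, beside 82.2% of all probes, all of them lower. GZMK stood at 1.06 (SE 0.52, adjusted p = 0.0577), GZMA at -1.38 (SE 0.65, adjusted p = 0.0531), GZMB at -0.19 (adjusted p = 0.819) and PRF1 at -0.31 (adjusted p = 0.629). Without 1 library GZMK was called when replicate 1 or 3 of group 1 was left out (adjusted p = 0.00318 and 0.0482), and GZMA when replicate 2 or 5 of group 1 or replicate 2 or 4 of group 3 was left out (adjusted p = 0.0307 to 0.0440). Relative to CD2, CD5 and CD6, further T cell markers, GZMK was called higher at 1.11 (adjusted p = 0.0105) and GZMA lower at -1.33 (adjusted p = 0.0263), and relative to CD8A and CD8B GZMA was called lower at -1.39 (adjusted p = 0.0469). Replicate 1 of group 1, with few CD3 transcripts, had the highest relative values of its group for all 4 members, at 2.22 for GZMA, 3.33 for GZMB, 1.81 for GZMK and 1.27 for PRF1. Neither stage comparison called a member or any other probe relative to the CD3 genes (0% of all probes in each). At an unadjusted p under 0.05, 0 of 4 members passed in either stage comparison on either scale, while of all probes 114 did on the deposited and 48 on the relative scale for group 2a minus group 1, and 50 and 11 for group 3 minus group 2b. No member was called in a stage comparison by edgeR or DESeq2 on the deposited scale.

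**Figure D3:**
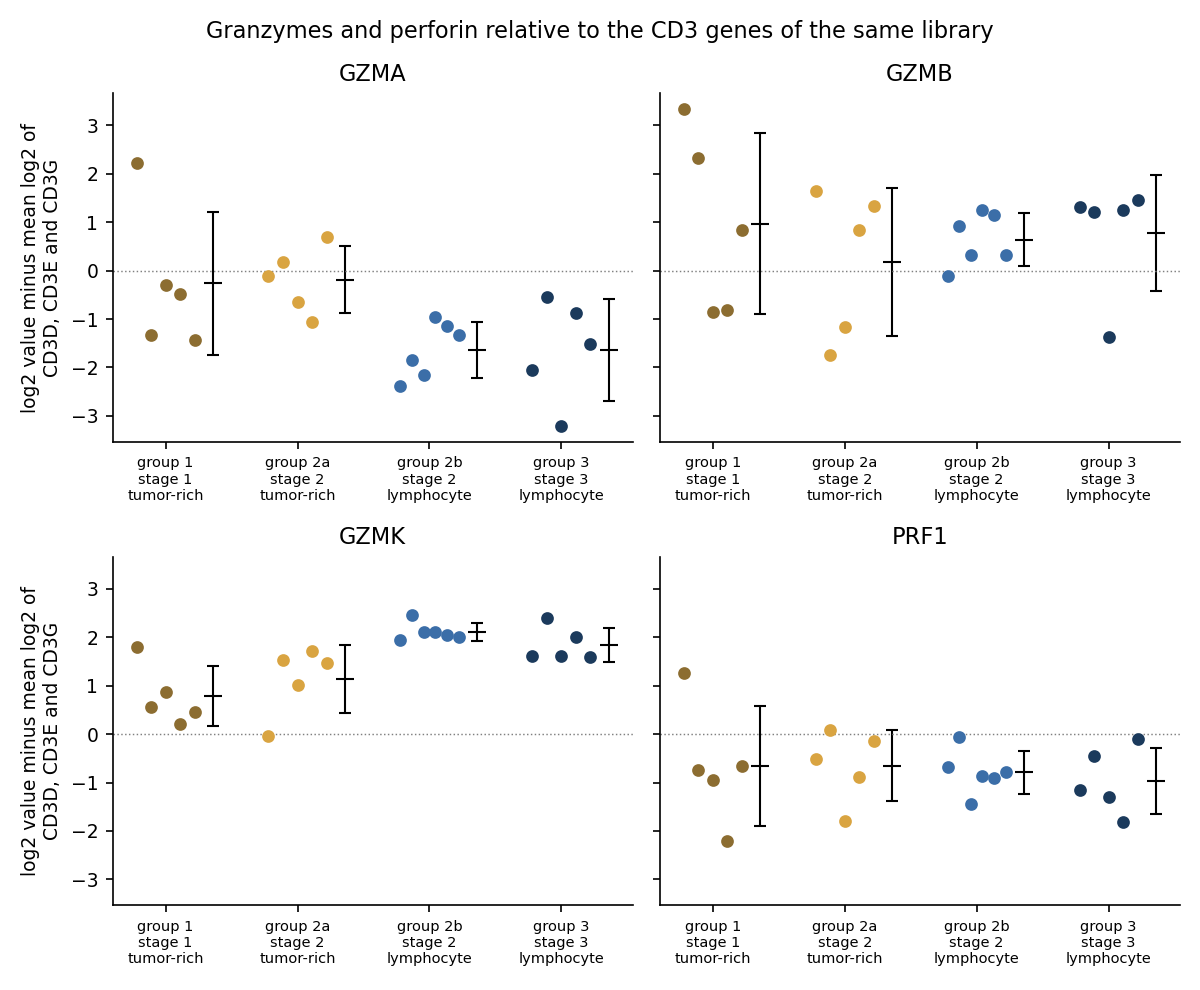
Each point is the log2 value of a member minus the mean log2 value of CD3D, CD3E and CD3G in the same library, with groups in order of stage and the mean ± SD beside the points (n = 5, 5, 6 and 5). GZMA averages -1.64 in both lymphocyte-enriched groups, -0.19 in group 2a and -0.26 in group 1, with overlapping ranges. Its values in group 1 run from -1.43 to 2.22, the highest in replicate 1 with few CD3 transcripts. GZMK is most even in group 2b, where 4 of the 6 libraries are pools of several dogs.

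The members were also set against each other within a library, which no scaling of the library can alter. The exact permutation tests of 6 pairs in 4 comparisons gave no adjusted p under 0.069 over the 24 tests and 6 unadjusted p under 0.05, and the smallest p that these group sizes can give is 0.00433 for 6 against 5 libraries and 0.00794 for 5 against 5. GZMK minus GZMA came nearest. It averaged 3.75 ± 0.62 on the log2 scale in group 2b and 1.32 ± 1.02 in group 2a (two-sided exact p = 0.00433, adjusted p = 0.0693), and 3.49 ± 0.80 in group 3 and 1.05 ± 0.96 in group 1 (two-sided exact p = 0.00794, adjusted p = 0.0693). GZMK minus GZMA was higher in all 11 lymphocyte-enriched libraries, at 2.90 or more, than in all 10 tumor cell-rich ones, at 2.78 or less. How many pairs of all probes separate in this way was not counted.

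PRF1 minus GZMA averaged 0.85 ± 0.74 in group 2b and -0.46 ± 0.53 in group 2a (exact p = 0.00866, adjusted p = 0.0693), and GZMB minus GZMA averaged 2.28 ± 0.37 in group 2b and 0.37 ± 1.60 in group 2a (exact p = 0.0130, adjusted p = 0.0779). The same pairs differed in group 3 minus group 1 by 1.07 (exact p = 0.151) and 1.19 (exact p = 0.214). GZMK minus PRF1 differed by 1.12 for group 2b minus group 2a and by 1.37 for group 3 minus group 1 (adjusted p = 0.104 each, exact permutation tests). GZMB against GZMK and against PRF1 had adjusted p of 0.571 or more in all 4 comparisons by the same exact test. The 6 pairs in both stage comparisons had adjusted p of 0.762 or more by the same exact test.

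**Figure D4:**
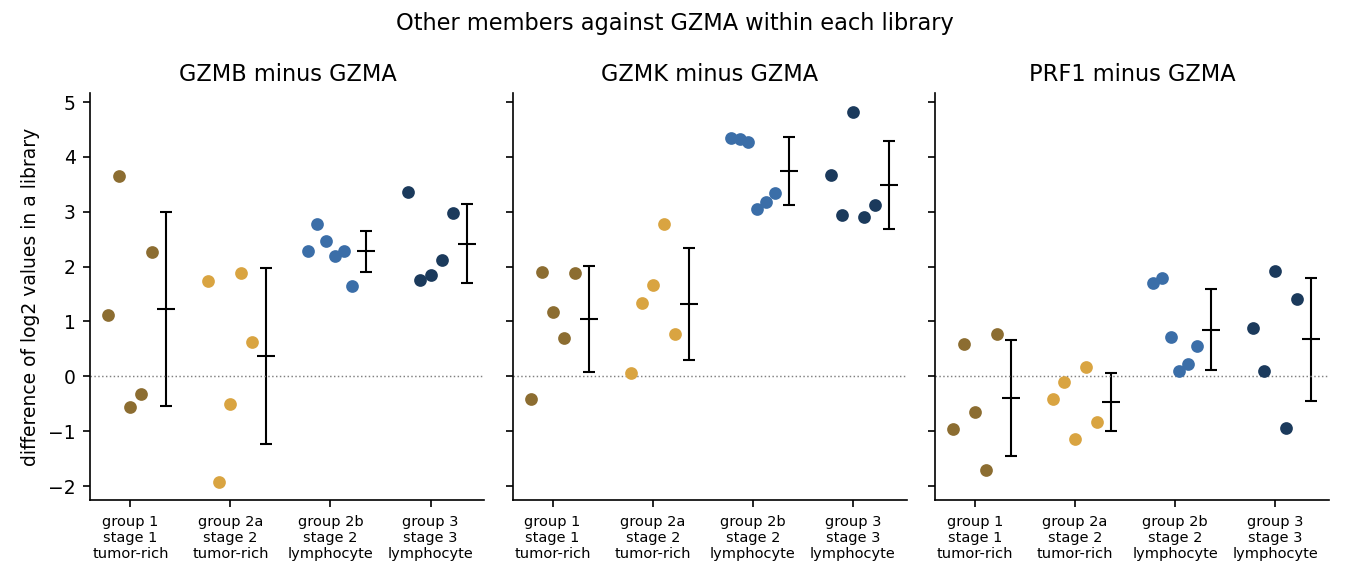
Each point is the log2 value of GZMB, GZMK or PRF1 minus that of GZMA in 1 library, with groups in order of stage and the mean ± SD beside the points (n = 5, 5, 6 and 5). The 2 kinds of tissue separate without overlap for GZMK minus GZMA, with 2.90 or more in lymphocyte-enriched and 2.78 or less in tumor cell-rich libraries. The share of all pairs of probes that separate so was not counted.

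Within tumor cell-rich tissue (n = 10 libraries) GZMK followed the CD3 genes most closely, with r = 0.91 (permutation p adjusted over 20 relations = 0.0050) and rho = 0.87 (adjusted p = 0.0203). Without the 2 libraries farthest from the median of the CD3 genes r was 0.81, and for deviations from the group means it was 0.91. GZMA also followed the CD3 genes (r = 0.75, adjusted p = 0.0196, rho = 0.82, adjusted p = 0.0373), and r was 0.92 without the 2 farthest libraries. GZMA and PRF1 (r = 0.85, adjusted p = 0.0125, rho = 0.75, adjusted p = 0.0573), GZMK and PRF1 (r = 0.84, adjusted p = 0.0125, rho = 0.77, adjusted p = 0.0573) and GZMA and GZMK (r = 0.80, adjusted p = 0.0162, rho = 0.75, adjusted p = 0.0573) passed by Pearson's r alone, as did PRF1 with the CD3 genes (r = 0.79, adjusted p = 0.0125, rho = 0.70, adjusted p = 0.0611). Without the 2 farthest libraries r was 0.75 (permutation p = 0.0307) for GZMA and PRF1 and 0.70 (permutation p = 0.0493) for GZMK and PRF1. It was 0.69 (permutation p = 0.0563) for GZMA and GZMK and 0.66 (permutation p = 0.0807) for PRF1 with the CD3 genes, past 0.05 with fewer libraries. GZMB had r of 0.33 to 0.52 with the other members and 0.42 with the CD3 genes, with adjusted p of 0.179 or more.

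Within lymphocyte-enriched tissue (n = 11 libraries) GZMB followed the CD3 genes (r = 0.77, permutation p adjusted = 0.0162, rho = 0.85, adjusted p = 0.0203) and GZMA (r = 0.86, adjusted p = 0.0108, rho = 0.68, adjusted p = 0.0611). Neither passed without the 2 libraries farthest from the median of the measure on the x axis, where r was 0.56 (permutation p = 0.121) and 0.49 (permutation p = 0.183). The same held for GZMK with the CD3 genes (r = 0.75, adjusted p = 0.0162, rho = 0.70, adjusted p = 0.0573, and r = 0.54 without them). It held as well for GZMA with GZMK (r = 0.75, adjusted p = 0.0175, rho = 0.66, adjusted p = 0.0611, and r = 0.44 without them) and for GZMA with the CD3 genes (r = 0.73, adjusted p = 0.0201, rho = 0.55, adjusted p = 0.146, and r = 0.39 without them). GZMB and GZMK did not pass (r = 0.63, adjusted p = 0.0508). PRF1 had r of 0.31 with the CD3 genes and 0.40 to 0.51 with the granzymes, with adjusted p of 0.158 or more.

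The probes whose pattern over the 21 libraries was most like that of a member were named by Pearson's r of log2 values, as a description that contains the differences between groups. GZMK was most like ITGAL (0.98), an integrin of leukocytes, EOMES (0.97), a transcription factor of memory and killer T cells, CD27 (0.97), CYFIP2 (0.97) and CD28 (0.97). PRF1 was most like PSMB8 (0.93), a subunit of the immunoproteasome, NKG7 (0.93), a granule protein of killer cells, CCL3 (0.93), LAG3 (0.93) and GZMK (0.92). Among the probes most like GZMB were ADA (0.92), adenosine deaminase, LAP3 (0.92), GZMH (0.91) and JAK3 (0.90). GZMA had the weakest neighbors, with CXCR6 (0.77), IL2RB (0.77), ETS1 (0.76), ICOS (0.76) and CD3G (0.75).

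With the group means removed, GZMK was most like LCK (0.93), a kinase of the T cell receptor, EOMES (0.92), CXCR6 (0.90), ICOS (0.90) and CD28 (0.90). PRF1 was then most like IFNG (0.88), interferon gamma, CCL3 (0.84), NKG7 (0.84), PSMB8 (0.80) and LAG3 (0.80), and among those most like GZMB were ADA (0.86), LAP3 (0.84), SPP1 (0.81) and GZMH (0.81). GZMA was then most like IL2RB (0.84), ETS1 (0.83), LAG3 (0.81), CD2 (0.80) and CXCR6 (0.79). The probes named for GZMB on either measure stood in no list of the other members, while CXCR6 was named for both GZMA and GZMK and LAG3 for both GZMA and PRF1 with the group means removed.

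GZMH, a further probe of the panel with the name of a granzyme, is given under its deposited name. The dog gene table used here holds no gene of that symbol. GZMH averaged 337 ± 95.6 normalized counts in group 2b (SD, n = 6) and 108 ± 73.7 in group 2a (SD, n = 5), with a log2 fold change of 1.82 (SE 0.47, adjusted p = 0.00460). It was 339 ± 153 in group 3 and 82.0 ± 48.5 in group 1 (SD, n = 5 each), with a log2 fold change of 2.09 (SE 0.49, adjusted p = 0.00240). In replicate 3 of group 3 GZMH stood at 104, the lowest of its group. All 4 members were also lowest of their group in this library, as were CD3D, CD3E, CD3G, CD8A, CD8B and NKG7, and 27.6% of all probes. Granzymes B and H are close relatives in humans, and whether their probes share signal here was not tested.

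Of 13 listed genes of granule content and release 4 were on the panel. NKG7 and CTSW, cathepsin W of killer cells, were called higher in both comparisons of lymphocyte-enriched with tumor cell-rich tissue. Of all probes 32.2% were called higher for group 2b minus group 2a and 29.4% for group 3 minus group 1. NKG7 averaged 2225 ± 502 normalized counts in group 2b and 524 ± 416 in group 2a (log2 fold change 2.36, adjusted p = 0.00231), and CTSW averaged 1170.3 ± 348 in group 2b and 240.3 ± 68.9 in group 2a (log2 fold change 2.27, adjusted p = 0.00143). The lysosomal membrane proteins LAMP1 (0.31, adjusted p = 0.223) and LAMP2 (0.69, adjusted p = 0.0707) did not pass. NKG7 had a log2 fold change of 2.97 and CTSW of 2.46 for group 3 minus group 1.

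Of 8 listed transcription factors and coreceptors of killer cells 5 were on the panel, and 5 and 4 of them were called higher for group 2b minus group 2a and for group 3 minus group 1. This stood beside 32.2% and 29.4% of all probes. EOMES had the largest log2 fold change of the list in both comparisons, 3.13 (SE 0.49) and 3.32 (SE 0.51). CD8B and CD8A, the chains of the CD8 coreceptor, stood at 2.79 and 2.41 for group 2b minus group 2a and at 2.72 and 3.09 for group 3 minus group 1. TBX21, which encodes T-bet, was at 0.96 (adjusted p = 0.00642) and at 0.67 (adjusted p = 0.0574), so that it was the member that did not pass for group 3 minus group 1. PRDM1, which encodes Blimp-1, was at 1.10 and 1.88.

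All 6 listed death ligands and IFNG were on the panel, with 5 and 4 called higher, beside 32.2% and 29.4% of all probes. LTA, lymphotoxin alpha, had the largest log2 fold change of the list for group 2b minus group 2a at 3.01 (SE 0.63). It averaged 70.5 ± 11.3 normalized counts in group 2b and only 10.9 ± 9.13 in group 2a. Of its values 1 was at the lowest deposited value, so that this change rests on low values. FASLG, the Fas ligand, was at 1.60 (SE 0.41) and at 2.24 (SE 0.42) for group 3 minus group 1. IFNG was at 1.51 (adjusted p = 0.0395) and 1.66 (adjusted p = 0.0301). TNFSF10, which encodes TRAIL, was at 0.63 (adjusted p = 0.0877) and 0.68 (adjusted p = 0.0783) and did not pass in either comparison.

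Receptors of natural killer cells, of which 9 of 12 were on the panel, moved both ways. For group 2b minus group 2a 5 were called higher and 1 lower, and for group 3 minus group 1 4 higher and 2 lower, against the 32.2% higher and 6.5% lower, and 29.4% higher and 10.5% lower, of all probes. NCR1, which encodes NKp46, was at 2.15 (SE 0.39) and 1.71 (SE 0.41), and KLRD1, which encodes CD94, at 1.78 (SE 0.66) and 2.45 (SE 0.69). KLRG1, an inhibitory receptor of effector lymphocytes, averaged 375 ± 85.2 normalized counts in group 2b and 1332 ± 590.3 in group 2a, with a log2 fold change of -1.76 (SE 0.33, adjusted p = 3.58e-04), and was also called lower for group 3 minus group 1 at -0.90 (adjusted p = 0.0459). CD244 was called lower for group 3 minus group 1 at -0.99 (adjusted p = 0.0449).

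Of 11 listed substrates and inhibitors of granzymes and of the death they start 4 were on the panel. CASP8, an initiator caspase, was called higher at 0.75 (SE 0.19) for group 2b minus group 2a. BID, cut by granzyme B, was called lower for group 3 minus group 1 at -0.44 (SE 0.14, adjusted p = 0.0187) and stood at -0.05 (adjusted p = 0.791) for group 2b minus group 2a. PARP1 passed in neither comparison. In both stage comparisons no gene of these 5 lists was called.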

How the data were processed

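RNA of 21 FFPE samples was measured on the nCounter Canine IO Panel. The deposited signal values were normalized counts that the authors had made in nSolver 4.0 at default settings (their own tests, which used R 3.3.2, were not used here). Each column was 1 factor (0.909 to 1.89) times whole counts within a tolerance of 0.01, and 18 values in 4 libraries had been raised to 1. Groups came from the labels, with 0 columns left without a group. The RefSeq gene table named 773 of the 800 probes by symbol and 4 by identifier, and 23 are named as deposited.

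All 800 probes were tested with limma 3.58.1 in R 4.3.3 (4 group means, moderated variances with an intensity trend) on log2(value + 1), where a fold change understates the change of low genes. Tests were two-sided with Benjamini-Hochberg adjustment over 800 probes, with 0.05 as the highest adjusted p of a call. A second fit used values relative to the mean log2 value of CD3D, CD3E and CD3G. Pairs of members were tested with exact permutation tests, and correlations with 100000 permutations. The fit was also run on simulated data with the same spread of a probe in all groups. The spread of the members differs between groups, so that run does not test the fit on this point. Alternatives on the recovered counts used edgeR 4.0.16 and DESeq2 1.42.0. The members, gene lists and tests were chosen with earlier results of these data known. Named were the 4 members, the 5 probes most like each, up to 4 called genes with the largest fold changes of each list, the genes used as denominators, and, after their values were seen, listed genes that did not pass and called markers of other cell types. Some genes that this rule names are not reported here. Pools were counted as single libraries, which can make p-values of comparisons with group 2b too small.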

Additional observations from a re-analysis of the deposited data

Results flagged for a closer look

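Of 32 sets of values of 1 member in 1 group, 3 held a library far from the others of its group by Dixon's criterion, which chance gives in about 1 of 20 sets. GZMB in replicate 3 of group 3 had a log2 value of 9.26, against 12.2 to 12.4 in the other libraries. Relative to the CD3 genes the same library stood at -1.37 for GZMB, against 1.22 to 1.47. GZMK relative to the CD3 genes stood at 2.47 in replicate 2 of group 2b, against 1.95 to 2.11. Replicates 1 (1.95) and 2 were the single-dog libraries of that group, and its 4 pools stood at 2.01 to 2.11. Whether pooling narrowed the spread was not tested. Without replicate 3 of group 3 the log2 fold change of GZMB for group 3 minus group 1 was 3.32 (adjusted p = 0.00196).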

How the results depend on the processing

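On the deposited scale the count of members called was within 1.5 times the reported one in all settings but 2. For group 2b minus group 2a it was 1 with edgeR and TMM factors and 1 with only the 2 single-dog libraries of group 2b, with GZMK as the member called in both, against 3 with all libraries in limma. Leaving out 1 library gave 3 in each case there and 3 to 4 for group 3 minus group 1. The replicate numbers did not pair the samples (r of deviations between groups -0.36 to 0.30), and with the replicate number as a block the counts on the deposited scale were 3 in both comparisons, and 0 relative to the CD3 genes for group 2b minus group 2a. That relative count, 1 as reported, was 2 with only the groups compared, 0 with DV200 as covariate, 0 with single-dog libraries only, 0 with pools only and 0 to 2 without 1 library. It was also, for group 3 minus group 1 with 0 over all libraries, 2 with pseudocount 10, 1 with CD8A and CD8B as denominator, 2 with CD2, CD5 and CD6 as denominator and 0 to 1 without 1 library. The cause of these changes was not tested.

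Signs turned only for values that were not called. For group 2a minus group 1 GZMB was 0.057 with TMM factors, 0.44 in edgeR and 0.44 in DESeq2 with deposited factors, 0.55 and 0.55 with their own, and 0.11 with DV200 as covariate. For group 3 minus group 2b GZMA was -0.24 and PRF1 0.039 with pools only, and PRF1 9.15e-04 with DESeq2's own size factors. For group 2b minus group 2a GZMA was -0.073 with equal medians, -0.019 in edgeR with TMM factors and -0.0095 with single-dog libraries. Relative to the CD3 genes, for group 3 minus group 2b, GZMA was 0.057 with the replicate block and 0.48 with single-dog libraries, GZMB -0.053 with DV200 and PRF1 0.035 with pools. For group 2b minus group 2a GZMB was -0.049 relative to CD8A and CD8B, and PRF1 0.28 with single-dog libraries. For group 3 minus group 1 GZMB was 0.40 and PRF1 0.15 with DV200.

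Without 1 library, the values that changed sign ranged as follows on the deposited scale. GZMB ran from -0.62 to 0.53 for group 2a minus group 1 and from -0.023 to 0.83 for group 3 minus group 2b, where GZMA ran from -0.20 to 0.55 and PRF1 from -0.30 to 0.084. Relative to the CD3 genes GZMA ran from -0.21 to 0.70 and PRF1 from -0.38 to 0.49 for group 2a minus group 1. For group 3 minus group 2b GZMA ran from -0.28 to 0.39, GZMB from -0.041 to 0.67 and PRF1 from -0.39 to 0.038. For group 2b minus group 2a GZMB ran from -0.019 to 0.83 and PRF1 from -0.42 to 0.044, and for group 3 minus group 1 GZMB from -0.65 to 0.40 and PRF1 from -0.70 to 0.17. No pair of members passed in any setting. Group sizes of 5 and 6 limit the precision of all these values.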
